A study of Homo sapiens with 18 samples.

Results

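Untreated NCI-H3122 cells were compared with untreated NCI-H2228 cells by RNA-seq to describe how these lung cancer lines differ at baseline in lineage, epithelial state, receptors, signalling output and metabolism. Of the 18 libraries of the series, the 6 that received only the solvent DMSO in these lines were used, 3 per line. A gene was a member when it reached at least 1 TPM (a relative level corrected for transcript length and library size) in at least 3 of the 6 libraries, and 16971 of 57500 genes did. The series as a whole measured 3 lines with TRI-611, which its title names as a molecular glue degrader of ALK, or with DMSO. Libraries of NCI-H3122 and NCI-H2228 treated with 3 µM TRI-611 for 3 h, and of untreated SNU2535 cells, serve here only for a second look and for context.

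Both lines are established human lines of non-small cell lung cancer, in which EML4 is known to be fused to ALK, and the labels give the genotype of each as WT and name no further allele. Cells of both groups were plated in 10 cm dishes in RPMI medium with fetal bovine serum and an antibiotic/antimycotic, kept overnight, and given DMSO for 3 h before they were frozen. RNA was isolated with a column kit and enriched for poly-A RNA, and libraries were made with a kit that adds molecular identifiers to mechanically fragmented RNA. Each group holds 1 library of each of 3 labelled batches, and nothing in the labels says whether these were separate cultures, so the p-values measure the spread between these samples only, which may be technical. Each line stands for 1 tumour, so the effects of line, donor and culture history cannot be told apart.

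ALK is a receptor tyrosine kinase of the developing nervous system, and its fusion to EML4 gives a kinase that is active without ligand and feeds the RAS and MAPK cascade. Lung adenocarcinoma cells usually keep part of the programme of the distal lung epithelium, led by the transcription factor NKX2-1, with surfactant genes as its products. Carcinoma cells can also move along an axis that has E-cadherin and tight junctions at its epithelial end and vimentin, matrix genes and the repressor ZEB1 at its mesenchymal end.

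The lines differed over most of the transcriptome. With limma on log2(TPM + 1), 13942 of the 16971 genes were called at a Benjamini-Hochberg adjusted p under 0.05, which is 82.2% of those tested, and the libraries of the lines did not overlap for 14172 genes (83.5%). Every log2 value below is the NCI-H3122 mean minus the NCI-H2228 mean on this scale, which understates the change of genes with few TPM. Named genes given without a p were called at this threshold where they passed the filter. Higher in NCI-H3122 were 5312 genes (31.3%) and lower 8630 (50.9%). When a difference of at least 2-fold was also asked for, 2053 genes (12.1%) were higher and 4647 (27.4%) lower, and these shares are the background for the gene groups below. Under quantile normalization the same counts were 3338 higher and 3137 lower, so this background depends on the scaling. The median of all genes was -0.27. Scaling by median ratios removed a shift of -0.29 between the lines and gave 6880 higher and 7214 lower calls, and quantile normalization gave 7549 higher and 6560 lower, so the excess of lower calls depends on the scaling, and differences near 0 are to be read against that shift.

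A filter on level lets genes in through either line. Of the members, 752 reached 1 TPM in NCI-H3122 libraries alone and 1930 in NCI-H2228 libraries alone, and these had to differ. Among the 14289 genes that reached 1 TPM in both lines, 1456 were at least 2-fold higher and 2973 at least 2-fold lower. Each library listed between 23766 and 24741 genes above 0 in NCI-H3122 and between 25188 and 25668 in NCI-H2228. Mitochondrially encoded genes held 11.2% ± 1.52 of all TPM in NCI-H3122 and 9.07% ± 1.23 in NCI-H2228 (SD, n = 3 each). Correlations of log2 values across genes ran from 0.99 to 0.993 within a line and from 0.779 to 0.785 between the lines. TPM values carry no sequencing depth, so no counting error can be given.

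The epithelial junction programme stood higher in NCI-H3122. Of 30 listed genes of epithelial state, 23 were higher in NCI-H3122 by 2-fold or more and 0 were lower, with a median of 2.08. Claudin, occludin and desmosome genes split, with 13 of 22 higher by 2-fold or more, 4 lower and a median of 1.16. Of these lists, 7 and 3 genes passed the filter through NCI-H3122 alone. In bulk RNA, fewer cells of a type and less RNA per cell cannot be told apart.

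CDH1, the gene of E-cadherin, the adhesion receptor of epithelial junctions, measured 168, 165 and 168 TPM in NCI-H3122, against 5.56, 5.71 and 5.69 TPM in NCI-H2228 (log2 difference 4.66, SE 0.0373, adjusted p = 6.44e-11). No library of NCI-H2228 came near the lowest of NCI-H3122. GRHL2, a transcription factor that maintains epithelial gene expression, measured 40.7, 40.3 and 43.9 TPM in NCI-H3122, against 0.363, 0.277 and 0.518 TPM in NCI-H2228 (log2 difference 4.94, adjusted p = 1.41e-09). OVOL1, a zinc finger factor of epithelial differentiation, measured 33.1, 33.3 and 32.5 TPM in NCI-H3122, against 0.153, 0.0363 and 0 TPM in NCI-H2228. Each of these regulators was under 1 TPM in every NCI-H2228 library. SNU2535, the third line of the series, averaged 567 ± 5.13 TPM of CDH1 and 16.9 ± 0.953 TPM of OVOL1 (SD, n = 3). For VIM, the mesenchymal filament gene, and CDH11, a mesenchymal cadherin, it lay between the other lines, at 50.2 ± 1.73 TPM of VIM and 34.5 ± 1.16 TPM of CDH11.

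RAB25, a small GTPase of epithelial membrane recycling, measured 198, 188 and 196 TPM in NCI-H3122, against 0.432, 0.741 and 0.440 TPM in NCI-H2228 (log2 difference 6.99, adjusted p = 2.7e-10). AP1M2, the subunit of the epithelial AP-1B sorting adaptor, measured 183, 176 and 187 TPM in NCI-H3122, against 0.663, 0.632 and 0.472 TPM in NCI-H2228 (log2 difference 6.85, adjusted p = 8.37e-11). Both genes stood above 175 TPM in one line and under 1 TPM in the other. Their promoters are shown because both hold the E-box letters CAGGTG or CACCTG, the kind of site that ZEB and SNAI repressors are known to bind. The windows span 300 bases around the gene start, in RefSeq on GRCh38.p14, 5′ to 3′ on the strand of the gene, and capitals mark each E-box. Of all 27305 genes with a promoter window, 24.1% hold these letters on either strand in at least 1 window. A match describes the sequence and does not show a bound site. Windows were at hand for too few listed epithelial genes (15 of 30) to read a share over the list.
RAB25 promoter, chr1:156060910-156061209, plus strand: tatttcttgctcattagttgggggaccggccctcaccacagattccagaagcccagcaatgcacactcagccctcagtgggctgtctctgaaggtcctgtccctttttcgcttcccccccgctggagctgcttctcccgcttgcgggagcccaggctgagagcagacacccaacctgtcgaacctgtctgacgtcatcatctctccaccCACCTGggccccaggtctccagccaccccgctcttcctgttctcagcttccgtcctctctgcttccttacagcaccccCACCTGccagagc
AP1M2 promoter, chr19:10587263-10587562, minus strand: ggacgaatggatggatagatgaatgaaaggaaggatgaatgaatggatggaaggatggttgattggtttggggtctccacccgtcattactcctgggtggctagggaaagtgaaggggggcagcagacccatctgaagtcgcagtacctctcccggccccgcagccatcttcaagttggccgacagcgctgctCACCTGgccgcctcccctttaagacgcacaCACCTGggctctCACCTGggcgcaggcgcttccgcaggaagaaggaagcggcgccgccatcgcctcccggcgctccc

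Junction genes showed that the split was not uniform. CGN, which encodes the tight junction protein cingulin, measured 423, 387 and 401 TPM in NCI-H3122, against 1.22, 0.973 and 1.51 TPM in NCI-H2228 (log2 difference 7.51, adjusted p = 2.66e-10). DSC2, a desmosomal cadherin, averaged 72.4 ± 1.91 TPM in NCI-H3122 and 0.285 ± 0.0628 TPM in NCI-H2228 (SD, n = 3 each). CLDN1, a tight junction claudin, went the other way, with 43.9, 42.6 and 42.3 TPM in NCI-H3122, against 234, 219 and 212 TPM in NCI-H2228 (log2 difference -2.34, adjusted p = 1.96e-09). The libraries did not overlap for any of the 3. EPCAM, the epithelial adhesion molecule used to identify carcinoma cells, averaged 666 ± 21.1 TPM in NCI-H3122 and 121 ± 4.15 TPM in NCI-H2228, so NCI-H2228 kept part of this programme. Keratin genes were split, with 4 of 11 tested higher (36.4%) and 4 lower (36.4%) in NCI-H3122 by 2-fold or more. KRT18 and KRT19, simple keratins that mark glandular epithelium, were like EPCAM. KRT18 averaged 2803 ± 50.3 TPM in NCI-H3122 and 632 ± 32.9 TPM in NCI-H2228, and KRT19 averaged 1952 ± 36.1 TPM in NCI-H3122 and 1237 ± 27.0 TPM in NCI-H2228. EPCAM and these keratins were thus present in both lines, while RAB25, AP1M2, GRHL2 and OVOL1 stayed under 1 TPM in every NCI-H2228 library.

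Mesenchymal genes ran in the opposite direction. Of 30 tested members of that list, 23 were lower in NCI-H3122 by 2-fold or more and 3 were higher, with a median of -2.69, and 9 had passed through NCI-H2228 alone. VIM, the intermediate filament vimentin, measured 0.731, 1.16 and 0.922 TPM in NCI-H3122, against 1070.5, 1026 and 1011 TPM in NCI-H2228 (log2 difference -9.07, SE 0.0779, adjusted p = 6.96e-11). ZEB1, the repressor of epithelial genes, measured 0.0769, 0.0507 and 0.0647 TPM in NCI-H3122, against 13.3, 12.7 and 13.0 TPM in NCI-H2228 (log2 difference -3.72, adjusted p = 5.55e-09). Neither gene reached 2 TPM in any NCI-H3122 library. CDH11, a mesenchymal cadherin, measured 0.00830, 0 and 0 TPM in NCI-H3122, against 342, 327 and 340.0 TPM in NCI-H2228. FN1, the matrix glycoprotein fibronectin, averaged 10.6 ± 0.502 TPM in NCI-H3122 and 721 ± 39.4 TPM in NCI-H2228 (log2 difference -5.95, adjusted p = 6.96e-11). In the plot of epithelial, mesenchymal and lineage genes by library, these genes form mirror-image blocks.

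Not every mesenchymal marker followed. CDH2, the gene of N-cadherin, measured 1.88, 2.39 and 2.18 TPM in NCI-H3122, against 0, 0 and 0.0302 TPM in NCI-H2228. TWIST1, a transcription factor of the same programme, measured 1.15, 1.08 and 1.44 TPM in NCI-H3122 and was listed at 0 in the 3 NCI-H2228 libraries. Both were low in absolute terms and higher in NCI-H3122. SNAI2, another repressor of this class, averaged 43.8 ± 3.52 TPM in NCI-H3122 and 48.7 ± 1.57 TPM in NCI-H2228, with overlapping libraries. Its log2 difference of -0.15 (adjusted p = 0.0483) was positive under both other scalings, and the call was lost with the replicate block (adjusted p = 0.0776) and with every library left out except NCI-H3122 replicate 1, with adjusted p from 0.0675 without NCI-H2228 replicate 1 to 0.16 without NCI-H3122 replicate 3.

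**Figure D1:**
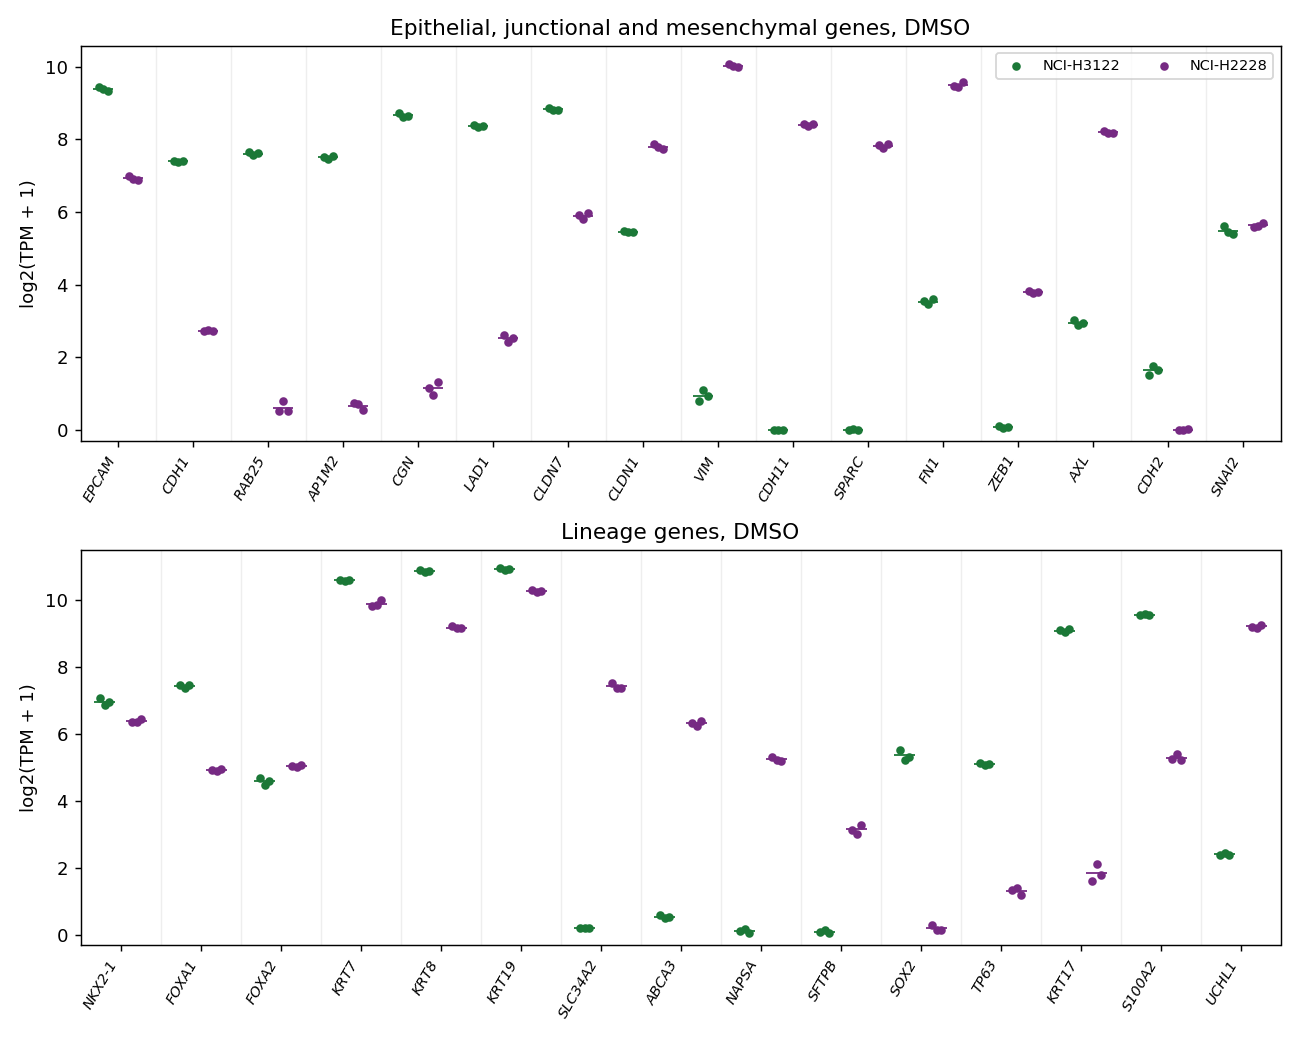
Level of 16 epithelial, junction and mesenchymal genes (one panel) and 15 lineage genes (the other) in each untreated library, on the y axis as log2(TPM + 1), with NCI-H3122 to the left of NCI-H2228 for each gene and short bars at the means. Epithelial genes such as CDH1 and RAB25 sit high in NCI-H3122 and low in NCI-H2228, VIM and CDH11 the other way, and the 3 libraries of a line lie close together.

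The miR-200 family is known to target ZEB1 mRNA, and its precursor transcripts were looked up after the values above had been seen. MIR200A measured 1.23, 3.25 and 1.55 TPM in NCI-H3122 and was listed at 0 in each NCI-H2228 library (adjusted p = 0.000374). MIR429 measured 5.35, 1.76 and 3.37 TPM in NCI-H3122 and was likewise listed at 0 in NCI-H2228 (adjusted p = 0.000243). MIR200B measured 3.50, 6.16 and 2.94 TPM in NCI-H3122, against 1.55, 0 and 0 TPM in NCI-H2228 (log2 difference 1.88, SE 0.428, adjusted p = 0.00603). These 3 share 1 locus on chromosome 1, and their low values vary by more than 2-fold among the NCI-H3122 libraries. MIR200A and MIR429 passed the filter through NCI-H3122 alone, so they had to differ. With TRI-611, limma called MIR200B between the lines (adjusted p = 0.00061) but not MIR200A (adjusted p = 0.0622) or MIR429 (adjusted p = 0.0549). MIR141, at the other locus on chromosome 12, measured 1.17, 0 and 4.42 TPM in NCI-H3122 and was listed at 0 in NCI-H2228, and MIR200C was listed at 0 in both lines, so neither passed the filter. MIR200CHG, the host transcript of that locus, measured 5.70, 1.25 and 4.00 TPM in NCI-H3122 and was listed at 0 in NCI-H2228 (limma, log2 difference 2.08, adjusted p = 0.00202). It passed through NCI-H3122 alone, and it was called with TRI-611 too (adjusted p = 0.000859). Poly-A libraries report fragments of the precursor and not the mature miRNA. The mature RefSeq sequences (GRCh38.p14) are shown because the family falls into 2 groups by seed, bases 2 to 8, given in capitals. The first 3 lines share one seed and the last 2 share another.
hsa-miR-200b-3p, chr1:1167160-1167181, plus strand: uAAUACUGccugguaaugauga
hsa-miR-200c-3p, chr12:6963742-6963764, plus strand: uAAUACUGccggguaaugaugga
hsa-miR-429, chr1:1169055-1169076, plus strand: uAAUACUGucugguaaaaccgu
hsa-miR-200a-3p, chr1:1167916-1167937, plus strand: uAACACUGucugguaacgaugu
hsa-miR-141-3p, chr12:6964155-6964176, plus strand: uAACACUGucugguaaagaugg

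Matrix and adhesion genes leaned to NCI-H2228, with 20 of 39 tested integrin and matrix genes lower in NCI-H3122 by 2-fold or more, 5 higher and a median of -1.15. COL6A1, a chain of type VI collagen, averaged 3.41 ± 0.108 TPM in NCI-H3122 and 513 ± 13.4 TPM in NCI-H2228 (log2 difference -6.86, adjusted p = 1.68e-11). ITGA5, the fibronectin receptor alpha chain, averaged 10.4 ± 0.0384 TPM in NCI-H3122 and 86.9 ± 1.76 TPM in NCI-H2228. MMP1, an interstitial collagenase, averaged 367 ± 19.3 TPM in NCI-H3122 and 33.2 ± 1.52 TPM in NCI-H2228, and ITGB6, an epithelial integrin subunit, averaged 31.3 ± 0.461 TPM in NCI-H3122 and 3.40 ± 0.318 TPM in NCI-H2228. Fibroblast markers lay on both sides. LUM, a matrix proteoglycan of fibroblasts, was at 204, 212 and 208 TPM in NCI-H3122, against 0.244, 0.186 and 0.0994 TPM in NCI-H2228, and COL1A1, a chain of type I collagen, averaged 12.3 ± 1.30 TPM in NCI-H3122 and 379.6 ± 11.9 TPM in NCI-H2228. Of 20 listed markers of other cell types, 8 were tested, and the fibroblast collagen COL3A1 and DCN were listed at 0 in both lines. The leukocyte marker PTPRC stayed under 0.2 TPM in all 6 libraries.

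Both lines carried NKX2-1, the lung lineage factor, but in NCI-H3122 the alveolar genes tested were near 0 or lower than in NCI-H2228. NKX2-1 measured 134, 116 and 124 TPM in NCI-H3122, against 80.6, 81.7 and 87.0 TPM in NCI-H2228 (log2 difference 0.58, SE 0.0582, adjusted p = 3.1e-05). No NCI-H2228 library reached those of NCI-H3122, but alveolar genes ran the other way. Of 16 listed surfactant and alveolar type II genes, 10 were tested, 7 were lower in NCI-H3122 by 2-fold or more and 0 were higher, with a median of -2.96, and 5 had passed through NCI-H2228 alone. SLC34A2, the phosphate transporter of type II cells, measured 0.165, 0.156 and 0.149 TPM in NCI-H3122, against 184, 167 and 167 TPM in NCI-H2228 (log2 difference -7.23, adjusted p = 6.57e-11). NAPSA, the aspartic protease that processes surfactant protein B, measured 0.0929, 0.122 and 0.0391 TPM in NCI-H3122, against 38.6, 36.6 and 35.8 TPM in NCI-H2228. ABCA3, the lipid transporter of lamellar bodies, averaged 0.457 ± 0.0503 TPM in NCI-H3122 and 79.4 ± 3.89 TPM in NCI-H2228. None of these 3 reached 1 TPM in any NCI-H3122 library. SFTPB, surfactant protein B itself, averaged 0.0649 ± 0.0376 TPM in NCI-H3122, 7.93 ± 0.865 TPM in NCI-H2228 and 68.5 ± 3.13 TPM in SNU2535.

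Squamous and basal genes stood higher in NCI-H3122. Of 15 tested members, 11 were higher by 2-fold or more and 1 was lower, with a median of 2.85, and 6 had passed through NCI-H3122 alone. That median is the value of IVL, which lies in the run of higher genes on chromosome 1 described below. S100A2, drawn among the lineage genes, lies there too, and the part of this region in the count was not tested. TP63, the transcription factor of basal cells, measured 34.0, 32.5 and 33.3 TPM in NCI-H3122, against 1.52, 1.63 and 1.28 TPM in NCI-H2228 (log2 difference 3.79, adjusted p = 2.47e-09). SOX2, a factor of foregut progenitors and squamous tumours, measured 45.3, 36.7 and 39.0 TPM in NCI-H3122, against 0.234, 0.111 and 0.119 TPM in NCI-H2228 (log2 difference 5.16, adjusted p = 2.2e-09). The lines did not overlap for either factor. KRT17, a keratin of basal cells, averaged 546 ± 14.8 TPM in NCI-H3122 and 2.62 ± 0.626 TPM in NCI-H2228. SERPINB5, the serpin maspin of squamous and myoepithelial cells, averaged 122 ± 7.00 TPM in NCI-H3122 and 0.600 ± 0.131 TPM in NCI-H2228. SNU2535 was near NCI-H2228 for KRT17, at 0.0585 ± 0.0539 TPM, and between the lines for TP63, at 14.1 ± 0.345 TPM.

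Of 8 tested gut and liver lineage genes, 2 were higher and 6 lower by 2-fold or more, with a median of -2.77. GATA5, an endoderm zinc finger factor, was listed at 0 in NCI-H3122 and measured 12.5, 12.3 and 12.8 TPM in NCI-H2228. TFF1, a secreted trefoil peptide of gastric epithelium, measured 351, 337 and 324 TPM in NCI-H3122, against 22.7, 22.6 and 19.3 TPM in NCI-H2228 (log2 difference 3.91, adjusted p = 1.24e-09). TFF1 had the highest difference of the list and is 1 of its 2 exceptions. FOXA1, a pioneer factor of endoderm, averaged 173 ± 6.57 TPM in NCI-H3122 and 29.3 ± 0.679 TPM in NCI-H2228, while its relative FOXA2 averaged 23.2 ± 1.65 TPM in NCI-H3122 and 32.2 ± 0.716 TPM in NCI-H2228. UCHL1, a neuronal deubiquitinase also used as a neuroendocrine marker, averaged 4.33 ± 0.0798 TPM in NCI-H3122 and 594 ± 20.1 TPM in NCI-H2228, but the defining neuroendocrine genes CHGA, SYP and INSM1 stayed under 1 TPM in both lines. Surface glycoproteins divided too, with MUC1 at 5.75 ± 0.942 TPM in NCI-H3122 and 453 ± 23.1 TPM in NCI-H2228, and CEACAM5 at 197 ± 11.4 TPM in NCI-H3122 and 1.74 ± 0.317 TPM in NCI-H2228.

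Antigen presentation and interferon genes lay almost wholly on the NCI-H2228 side. All 41 listed genes were tested, 37 were lower in NCI-H3122 by 2-fold or more, 0 were higher, 3 were not called, and the median was -3.55. Of these genes, 18 had passed through NCI-H2228 alone. In class II presentation, CD74, the invariant chain, measured 0, 0 and 0.0879 TPM in NCI-H3122, against 1522, 1429 and 1508 TPM in NCI-H2228 (log2 difference -10.50, SE 0.0501, adjusted p = 1.04e-11). HLA-DRA, the class II alpha chain, was listed at 0 in the NCI-H3122 libraries and measured 838, 783 and 797 TPM in NCI-H2228. CIITA, the transcriptional master regulator of class II genes, averaged 0.0662 ± 0.0308 TPM in NCI-H3122 and 2.48 ± 0.210 TPM in NCI-H2228. This group was thus near 0 throughout in NCI-H3122, and HLA-DRB1 and HLA-DRB5, which also led the all-gene ranking, may share reads and are left uncertain.

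Class I presentation was present in both lines at different levels. HLA-B measured 16.5, 14.5 and 14.5 TPM in NCI-H3122, against 2413, 2268 and 2365 TPM in NCI-H2228 (log2 difference -7.19, adjusted p = 5.22e-11). B2M, the light chain of every class I molecule, measured 36.1, 33.0 and 32.6 TPM in NCI-H3122, against 1003, 973 and 958 TPM in NCI-H2228 (log2 difference -4.81, adjusted p = 8.29e-11). NCI-H3122 was lower in each library for both genes, and more so for HLA-B, whose reads may be shared with its neighbour HLA-C. TAP1, the peptide transporter of the endoplasmic reticulum, averaged 1.18 ± 0.114 TPM in NCI-H3122 and 139.9 ± 4.94 TPM in NCI-H2228 (log2 difference -6.01, adjusted p = 9.95e-11). It overlaps the proteasome gene PSMB9 on the other strand, so reads of the pair may not be separable. NLRC5, the regulator of class I genes, averaged 0.0611 ± 0.0142 TPM in NCI-H3122, 12.3 ± 2.08 TPM in NCI-H2228 and 14.5 ± 0.641 TPM in SNU2535.

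Among classical interferon targets, BST2, the membrane protein tetherin, was listed at 0 in the NCI-H3122 libraries and measured 515, 484 and 521 TPM in NCI-H2228. IFITM3, a restriction factor of endosomes, measured 4.28, 2.39 and 4.15 TPM in NCI-H3122, against 1095, 1045 and 1043 TPM in NCI-H2228 (log2 difference -7.88, adjusted p = 7.8e-08). MX1, an antiviral GTPase, averaged 0.109 ± 0.0391 TPM in NCI-H3122 and 27.3 ± 1.18 TPM in NCI-H2228. These targets were at least 2-fold apart. IRF7, a transcription factor of the same response, averaged 18.9 ± 0.942 TPM in NCI-H3122 and 20.1 ± 1.68 TPM in NCI-H2228 (log2 difference -0.087, adjusted p = 0.279). Under median-ratio scaling it was called higher in NCI-H3122, at a log2 difference of 0.19 (adjusted p = 0.0296). IRF1, a factor downstream of interferon gamma, measured 4.18, 3.84 and 4.20 TPM in NCI-H3122, against 20.3, 20.1 and 19.6 TPM in NCI-H2228.

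Promoters of TAP1 and BST2 are printed because each holds the core letters of the interferon-stimulated response element, which are GAAA, any 2 bases and GAAA again, or TTTC, any 2 bases and TTTC on the other strand, in capitals below, as 2 overlapping matches merged into 1 run. Of all genes with a promoter window, 4.38% hold these letters in at least 1 window. The sequences are RefSeq windows on GRCh38.p14 on the strand of each gene, and for TAP1 the one shown is 1 of 2 windows. Windows were at hand for 29 of the 41 listed genes, too few to read a share over the list, and a match does not show binding.
TAP1 promoter, chr6:32853655-32853954, minus strand: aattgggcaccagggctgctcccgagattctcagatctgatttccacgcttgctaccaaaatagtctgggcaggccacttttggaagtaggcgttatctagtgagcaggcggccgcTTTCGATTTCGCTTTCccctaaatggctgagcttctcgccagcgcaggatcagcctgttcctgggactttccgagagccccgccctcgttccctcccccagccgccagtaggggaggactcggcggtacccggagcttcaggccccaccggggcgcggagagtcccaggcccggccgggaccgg
BST2 promoter, chr19:17405581-17405880, minus strand: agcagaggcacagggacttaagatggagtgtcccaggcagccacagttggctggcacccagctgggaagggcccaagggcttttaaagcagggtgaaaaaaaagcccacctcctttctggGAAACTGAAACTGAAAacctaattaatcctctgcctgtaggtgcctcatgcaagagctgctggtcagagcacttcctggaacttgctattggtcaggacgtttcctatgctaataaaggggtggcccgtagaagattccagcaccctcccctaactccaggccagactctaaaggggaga

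NF-kB and inflammatory genes followed the same side. Of 24 tested, 21 were lower in NCI-H3122 by 2-fold or more and 1 was higher, with a median of -3.13, and 11 had passed through NCI-H2228 alone. CSF1, the macrophage growth factor, measured 0.676, 0.621 and 0.826 TPM in NCI-H3122, against 285, 278 and 309 TPM in NCI-H2228 (log2 difference -7.42, adjusted p = 6.96e-11). ICAM1, an adhesion receptor for leukocytes, averaged 2.40 ± 0.280 TPM in NCI-H3122 and 152 ± 3.75 TPM in NCI-H2228. The exception was NFKBIA, which encodes the inhibitor IkB-alpha, with 336, 329 and 335 TPM in NCI-H3122, against 56.6, 53.3 and 58.4 TPM in NCI-H2228 (log2 difference 2.55, adjusted p = 8.16e-10). Its position on chromosome 14 is taken up with its neighbours below. Of 20 tested genes of the STAT3 and SOCS list, 3 were higher and 14 lower by 2-fold or more, with a median of -1.59. C3, a complement component, averaged 0.0393 ± 0.0250 TPM in NCI-H3122 and 126 ± 5.32 TPM in NCI-H2228, and LCN2, the iron-binding lipocalin, averaged 11.7 ± 1.16 TPM in NCI-H3122 and 644 ± 19.3 TPM in NCI-H2228. STAT3 itself averaged 59.0 ± 3.42 TPM in NCI-H3122 and 128 ± 2.75 TPM in NCI-H2228.

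**Figure D2:**
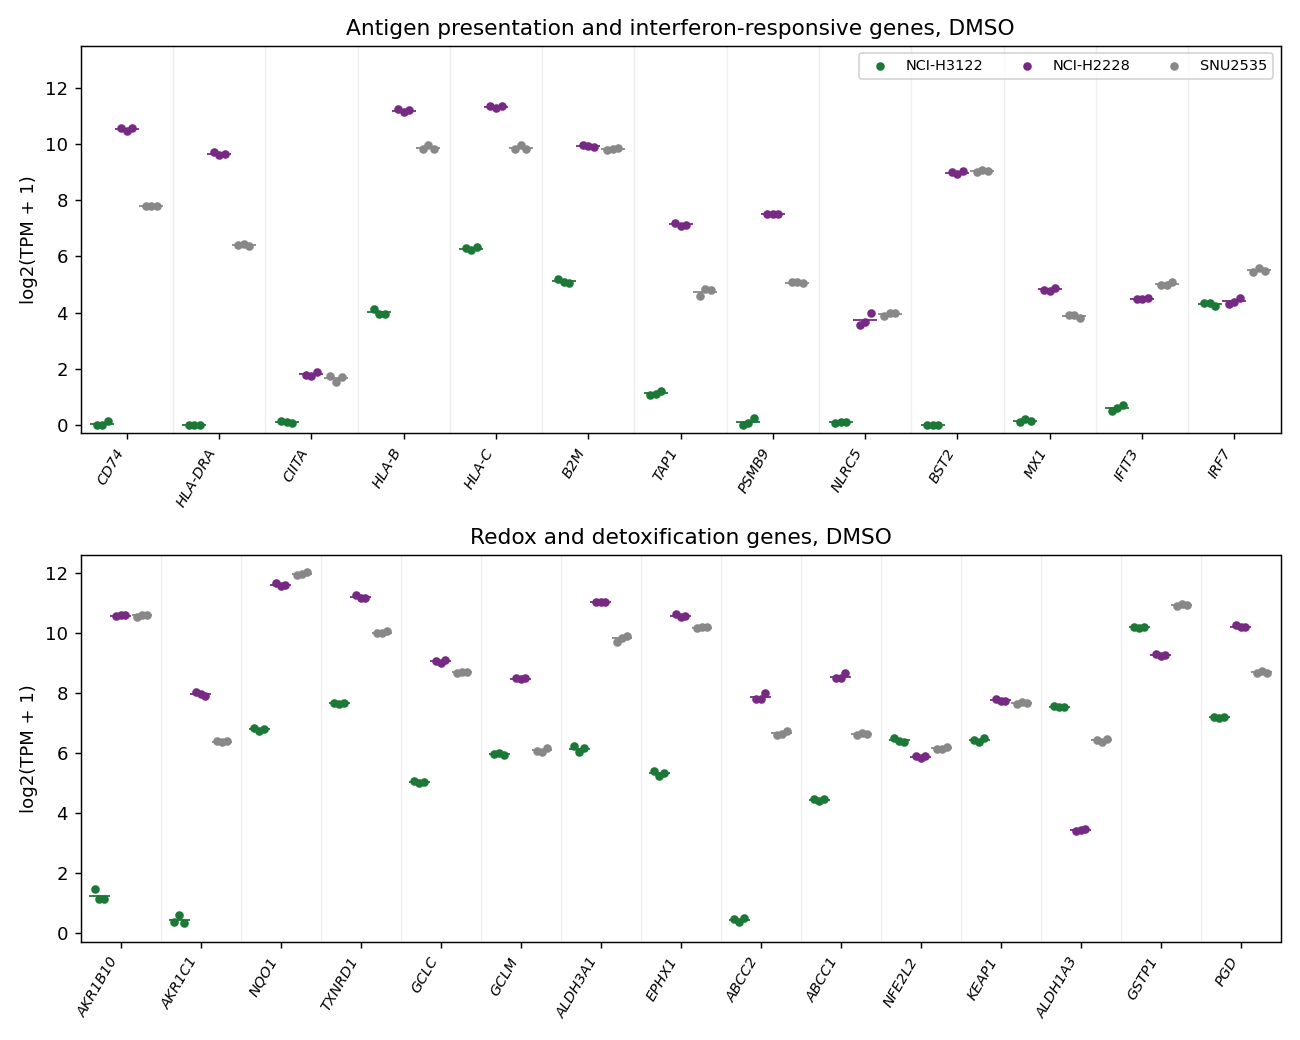
Level of 13 antigen presentation and interferon-responsive genes and of 15 redox and detoxification genes in each untreated library of NCI-H3122, NCI-H2228 and SNU2535, on the y axis as log2(TPM + 1), with short bars at the means. CD74 and BST2 lie near 0 and AKR1B10 lies low in NCI-H3122 while all 3 are high in the other lines, IRF7 differs little between NCI-H3122 and NCI-H2228, and ALDH1A3 is highest in NCI-H3122.

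The receptor that the lines are known for was expressed in both. ALK measured 17.3, 15.3 and 15.9 TPM in NCI-H3122, against 11.1, 10.9 and 11.1 TPM in NCI-H2228 (log2 difference 0.51, SE 0.0608, adjusted p = 8.81e-05). Its fusion partner EML4 measured 145, 137 and 142 TPM in NCI-H3122, against 58.6, 57.3 and 59.0 TPM in NCI-H2228 (log2 difference 1.26, SE 0.0344, adjusted p = 1.4e-08). The lines did not overlap for either gene, and gene-level values do not tell fused from normal transcripts. SNU2535 averaged 24.8 ± 2.11 TPM of ALK and 38.3 ± 1.46 TPM of EML4, so the order of the lines differed between the partners.

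Receptor tyrosine kinases split evenly, with 9 of 29 tested genes higher by 2-fold or more, 9 lower and a median of -0.12, which was positive under median-ratio scaling (0.16) and quantile normalization (0.073). AXL, a kinase known to accompany mesenchymal states, averaged 6.77 ± 0.382 TPM in NCI-H3122 and 293 ± 6.18 TPM in NCI-H2228 (log2 difference -5.24, adjusted p = 7.19e-11). FGFR1, a fibroblast growth factor receptor, averaged 0.369 ± 0.0626 TPM in NCI-H3122 and 44.2 ± 2.30 TPM in NCI-H2228, and its ligand FGF2 averaged 0.0537 ± 0.0398 TPM in NCI-H3122 and 41.8 ± 1.53 TPM in NCI-H2228. Receptor and ligand were thus both under 1 TPM in NCI-H3122. ERBB3, the partner receptor of ERBB2, averaged 38.6 ± 1.35 TPM in NCI-H3122 and 9.92 ± 0.348 TPM in NCI-H2228. EPHA1, an ephrin receptor of epithelia, averaged 27.5 ± 1.04 TPM in NCI-H3122 and 0.401 ± 0.105 TPM in NCI-H2228.

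EGFR and MET, receptors known to bypass ALK in resistant tumours, were close. EGFR measured 133, 129 and 131 TPM in NCI-H3122, against 145, 135 and 149 TPM in NCI-H2228 (log2 difference -0.12, SE 0.0416, adjusted p = 0.0253), and the sign turned under median-ratio scaling (0.16) and quantile normalization (0.073). The EGFR call was lost without NCI-H2228 replicate 1 (adjusted p = 0.0719) or 3 (0.0774), and without NCI-H3122 replicate 2 (0.0726) or 3 (0.0647). MET measured 281, 267 and 278 TPM in NCI-H3122, against 260.3, 249 and 256 TPM in NCI-H2228 (log2 difference 0.11, adjusted p = 0.014), a call lost without NCI-H3122 replicate 3 (adjusted p = 0.0519). Among ligands, IGF2, an imprinted insulin-like growth factor, averaged 154 ± 4.54 TPM in NCI-H3122 and 0.736 ± 0.125 TPM in NCI-H2228, and EGF averaged 0.306 ± 0.0532 TPM in NCI-H3122 and 17.9 ± 1.16 TPM in NCI-H2228. Of 32 tested growth factor and ligand genes, 4 were higher and 15 lower by 2-fold or more. Of 48 tested other surface receptors, 7 were higher and 23 lower by 2-fold or more.

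Output genes of the MAPK cascade went both ways at baseline. Of 10 genes in a compact output list, 6 were called higher and 4 lower, beside 31.3% and 50.9% of all genes. By 2-fold or more 3 were higher (30.0%) and 1 lower (10.0%), beside 12.1% and 27.4% of all genes. The median was 0.38 beside -0.27. DUSP6, the phosphatase that dampens ERK, measured 250.4, 242 and 237 TPM in NCI-H3122, against 15.6, 14.1 and 15.8 TPM in NCI-H2228 (log2 difference 3.91, SE 0.0499, adjusted p = 3.6e-10). CCND1, the gene of cyclin D1, measured 5021, 4882 and 4899 TPM in NCI-H3122, against 340.1, 350.0 and 358 TPM in NCI-H2228 (log2 difference 3.82, adjusted p = 3.78e-11). ETV5, an ETS factor downstream of ERK, measured 12.9, 12.6 and 12.4 TPM in NCI-H3122, against 126, 119 and 116 TPM in NCI-H2228 (log2 difference -3.16, adjusted p = 5.23e-10). No library of one line reached the range of the other for these 3 genes, and they point in different directions. ETV4, a relative of ETV5, averaged 58.5 ± 0.586 TPM in NCI-H3122 and 63.8 ± 0.721 TPM in NCI-H2228, and its log2 difference of -0.12 was positive under median-ratio scaling (0.16) and quantile normalization (0.13). SPRY4, a feedback inhibitor, averaged 25.2 ± 0.812 TPM in NCI-H3122 and 16.9 ± 0.210 TPM in NCI-H2228, and PHLDA1 averaged 204 ± 1.95 TPM in NCI-H3122 and 176 ± 6.19 TPM in NCI-H2228.

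Of 27 tested immediate-early and AP-1 genes, 10 were higher (37.0%) and 4 lower (14.8%) by 2-fold or more, with a median of 0.19. JUNB averaged 1025 ± 35.3 TPM in NCI-H3122 and 184 ± 2.84 TPM in NCI-H2228 (log2 difference 2.47, adjusted p = 3.73e-10), whereas FOSL1, the AP-1 subunit FRA1, averaged 181 ± 4.27 TPM in NCI-H3122 and 893 ± 21.7 TPM in NCI-H2228 (log2 difference -2.30, adjusted p = 4.1e-10). MYC, the growth-promoting factor, measured 421, 416 and 427 TPM in NCI-H3122, against 118, 115 and 126 TPM in NCI-H2228 (log2 difference 1.81, adjusted p = 4.09e-09). Of 26 tested genes of the MYC and ribosome biogenesis list, 22 were called higher in NCI-H3122 and 0 lower, beside 31.3% and 50.9% of all tested genes. By 2-fold or more 6 were higher (23.1%), beside 12.1% of all genes, and the median was 0.57. PEBP1, the RAF kinase inhibitor protein, averaged 5.13 ± 0.772 TPM in NCI-H3122 and 194 ± 6.68 TPM in NCI-H2228. Of 15 tested ETS factors, 1 was higher and 4 were lower by 2-fold or more, with a median of -0.24 that became 0.049 under median-ratio scaling. Of 20 tested YAP and TEAD targets, 1 was higher and 11 were lower, and among 23 tested Wnt and Notch genes 11 were higher and 6 lower by 2-fold or more. ANKRD1, a YAP target, averaged 0.0964 ± 0.0835 TPM in NCI-H3122 and 71.3 ± 2.26 TPM in NCI-H2228, and CTNNB1, the gene of beta-catenin, averaged 484 ± 7.13 TPM in NCI-H3122 and 123 ± 4.25 TPM in NCI-H2228.

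The TRI-611 libraries gave a second measure of the line difference in samples that the DMSO comparison did not use. They came from the same lines and labelled batches, and only genes kept by the DMSO filter were fitted. Among these are the 752 and 1930 genes that passed through 1 line alone. High shares of calls in the same direction were thus likely from the start and are no independent test. Of the 2053 genes higher in NCI-H3122 by 2-fold or more with DMSO, 1986 (96.7%) were called in the same direction with TRI-611, and so were 4562 of the 4647 lower genes (98.2%). Called the other way with TRI-611 were 3 and 2 genes. With TRI-611, 13746 genes (81.0% of those tested) were called between the lines, 5438 (32.0%) higher and 8308 (49.0%) lower. KRT17 averaged 315 ± 14.0 TPM in TRI-611-treated NCI-H3122 and 2.45 ± 0.176 TPM in TRI-611-treated NCI-H2228, and its line difference was 0.73 smaller than with DMSO (interaction -0.73, adjusted p = 0.00478). CDH1 averaged 196 ± 6.28 TPM in TRI-611-treated NCI-H3122 and 6.19 ± 0.269 TPM in TRI-611-treated NCI-H2228, and its line difference was 0.12 larger than with DMSO (interaction adjusted p = 0.216). The interaction, which is the line difference with TRI-611 less that with DMSO, was called for 2103 genes (12.4%).

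MAPK output genes were among those whose line difference depended on treatment. DUSP6 measured 12.9, 9.64 and 10.3 TPM in TRI-611-treated NCI-H3122, against 3.23, 3.77 and 3.40 TPM in TRI-611-treated NCI-H2228. Its log2 difference between the lines was 1.41 with TRI-611 and 3.91 with DMSO (interaction -2.50, SE 0.126, adjusted p = 4.97e-07). SPRY4 measured 0.665, 0.518 and 0.603 TPM in TRI-611-treated NCI-H3122, against 4.86, 4.26 and 4.93 TPM in TRI-611-treated NCI-H2228. The direction of SPRY4 was turned, with a log2 difference of -1.83 with TRI-611 and 0.55 with DMSO (interaction -2.38, adjusted p = 9.95e-08). PHLDA1 was turned as well, at -0.82 with TRI-611 and 0.21 with DMSO (interaction -1.03, adjusted p = 3.76e-06). EGR1, an immediate-early transcription factor, measured 4.56, 4.50 and 7.26 TPM in TRI-611-treated NCI-H3122, against 32.5, 31.5 and 30.4 TPM in TRI-611-treated NCI-H2228. With DMSO it measured 37.0, 39.7 and 37.4 TPM in NCI-H3122 and 31.4, 33.3 and 35.0 TPM in NCI-H2228, so the lines were close there and far apart with TRI-611 (interaction -2.55, adjusted p = 5.38e-06). Of the 10 output genes, 9 had an interaction call, each toward lower values in NCI-H3122, and ETV4 had none (-0.11, adjusted p = 0.574).

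**Figure D3:**
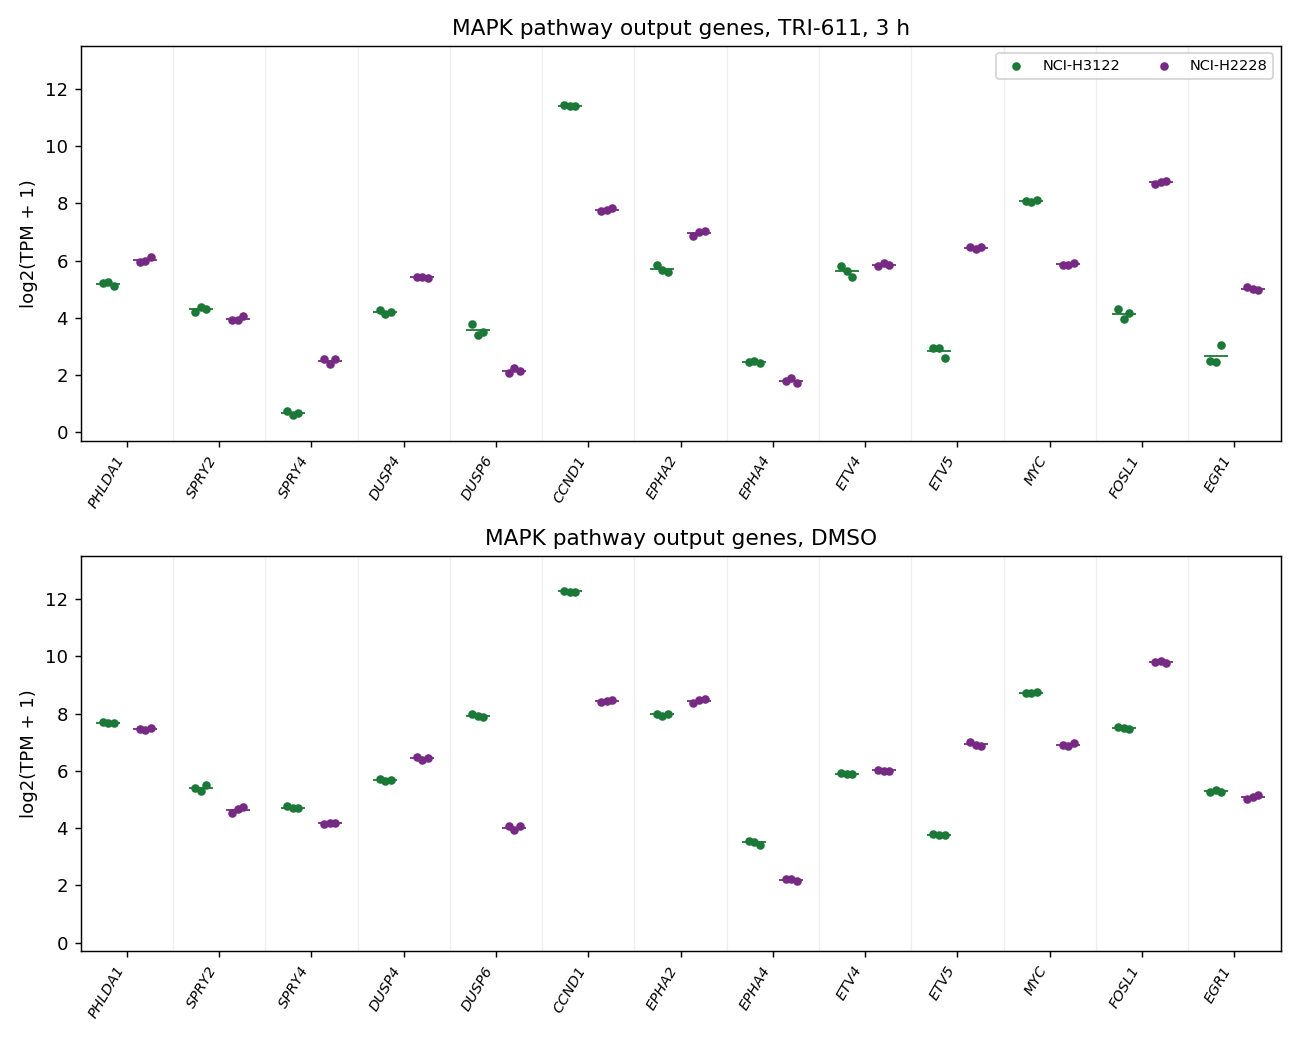
Level of 13 MAPK output genes in each library of NCI-H3122 (left of each pair) and NCI-H2228, on the y axis as log2(TPM + 1), with TRI-611 for 3 h in the upper panel and DMSO in the lower, and short bars at the means. DUSP6 and CCND1 are higher in NCI-H3122 in both panels, while SPRY4 and PHLDA1 are higher there with DMSO and lower with TRI-611.

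Cell cycle genes leaned to NCI-H3122. Of 28 tested cell cycle genes, 8 were higher and 3 lower by 2-fold or more, with a median of 0.60. RB1, the retinoblastoma tumour suppressor, measured 27.7, 25.6 and 26.0 TPM in NCI-H3122, against 2.67, 2.68 and 2.96 TPM in NCI-H2228 (log2 difference 2.86, adjusted p = 5.7e-09). CDK6, a partner kinase of cyclin D, averaged 24.8 ± 0.635 TPM in NCI-H3122 and 2.52 ± 0.414 TPM in NCI-H2228, and CDKN2C, an inhibitor of that kinase, averaged 5.10 ± 0.0856 TPM in NCI-H3122 and 59.3 ± 1.81 TPM in NCI-H2228. The inhibitor and its kinase thus stood on opposite sides. CDKN2A and CDKN2B, other inhibitors of the kinase, were listed at 0 in all 6 libraries, as was their neighbour MTAP, which averaged 10.0 ± 0.436 TPM in SNU2535. UBE2C, a mitotic ubiquitin-conjugating enzyme named after its values were seen, measured 167, 156 and 169 TPM in NCI-H3122, against 1.37, 1.74 and 2.44 TPM in NCI-H2228, while SNU2535 averaged 247 ± 6.92 TPM. The UBE2C log2 difference of 5.87 lies beyond the range of the cell cycle list, from -3.30 to 3.82. UBE2C therefore does not stand for that list.

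In the BCL2 family, 6 of 15 tested genes were higher and 1 lower by 2-fold or more. MCL1, an anti-apoptotic member, measured 2001, 1878 and 1915 TPM in NCI-H3122, against 285, 282 and 287 TPM in NCI-H2228 (log2 difference 2.76, adjusted p = 1.43e-10). BCL2L1, which encodes the anti-apoptotic BCL-XL, measured 123, 120.4 and 123 TPM in NCI-H3122, against 417, 415 and 424 TPM in NCI-H2228 (log2 difference -1.77, adjusted p = 6.64e-10). The main anti-apoptotic genes were therefore weighted differently, with no overlap of libraries. BMF, a pro-apoptotic BH3-only member, averaged 175 ± 3.80 TPM in NCI-H3122 and 19.7 ± 0.304 TPM in NCI-H2228.

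Redox metabolism was a second block in which NCI-H2228 stood far higher. Of 33 tested NRF2 and redox genes, 27 were lower in NCI-H3122 by 2-fold or more and 1 was higher, with a median of -3.51, and 4 had passed through NCI-H2228 alone. AKR1B10, an aldo-keto reductase, averaged 1.39 ± 0.342 TPM in NCI-H3122 and 1527 ± 23.5 TPM in NCI-H2228 (log2 difference -9.33, SE 0.0933, adjusted p = 3.6e-10). NQO1, a quinone reductase, measured 113, 104 and 111 TPM in NCI-H3122, against 3215, 3020.4 and 3091 TPM in NCI-H2228 (log2 difference -4.82, adjusted p = 6.45e-11). TXNRD1, thioredoxin reductase, measured 204, 196 and 202 TPM in NCI-H3122, against 2447, 2297 and 2294 TPM in NCI-H2228 (log2 difference -3.54, adjusted p = 8.39e-11). All 3 genes were lower in every NCI-H3122 library. GCLC and GCLM, the subunits of the enzyme that starts glutathione synthesis, had log2 differences of -4.02 and -2.51. SNU2535 averaged 1529.8 ± 33.2 TPM of AKR1B10 and 4016 ± 122 TPM of NQO1, on the NCI-H2228 side.

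The regulators themselves differed less. NFE2L2, the gene of NRF2, averaged 85.2 ± 4.33 TPM in NCI-H3122 and 57.8 ± 1.83 TPM in NCI-H2228 (log2 difference 0.55, adjusted p = 1.07e-05). KEAP1, the adaptor that marks NRF2 for degradation, averaged 85.7 ± 3.12 TPM in NCI-H3122 and 216 ± 5.25 TPM in NCI-H2228 (log2 difference -1.32, adjusted p = 1.71e-08). ALDH1A3, an aldehyde dehydrogenase of retinoic acid synthesis, was the listed gene higher by 2-fold or more, at 185 ± 3.59 TPM in NCI-H3122 and 9.85 ± 0.268 TPM in NCI-H2228. Promoters of TXNRD1 and GCLM are shown because each holds the core letters of the antioxidant response element that NRF2 is known to bind, TGACNNNGC or GCNNNGTCA, in capitals. Of all genes with a promoter window, 16.1% hold these letters in at least 1 window. The sequences are RefSeq windows on GRCh38.p14 on the strand of each gene, 1 of 2 windows for TXNRD1. Windows were at hand for 31 of 39 listed genes, just too few for a share over the list.
TXNRD1 promoter, chr12:104215529-104215828, plus strand: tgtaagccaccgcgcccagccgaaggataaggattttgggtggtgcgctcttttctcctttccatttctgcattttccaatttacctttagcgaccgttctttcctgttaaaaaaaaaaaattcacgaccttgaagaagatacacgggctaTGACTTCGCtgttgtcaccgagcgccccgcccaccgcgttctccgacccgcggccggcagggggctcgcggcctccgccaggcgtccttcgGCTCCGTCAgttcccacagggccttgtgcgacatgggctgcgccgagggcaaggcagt
GCLM promoter, chr1:93909381-93909680, minus strand: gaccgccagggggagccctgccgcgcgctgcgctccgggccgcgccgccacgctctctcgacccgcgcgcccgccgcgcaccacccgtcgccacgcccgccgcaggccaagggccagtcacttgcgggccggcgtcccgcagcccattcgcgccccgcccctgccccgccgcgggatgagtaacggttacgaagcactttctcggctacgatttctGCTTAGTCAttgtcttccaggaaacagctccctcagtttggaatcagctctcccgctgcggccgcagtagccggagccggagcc

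Hypoxia genes stood further from the background than those of carbon metabolism. Of 33 tested glycolysis and pentose phosphate genes, 2 were higher and 12 lower (36.4%) by 2-fold or more, beside 27.4% of all genes lower, with a median of -0.53 beside -0.27. PGD, an NADPH-producing enzyme of the pentose phosphate pathway, measured 146, 144 and 144 TPM in NCI-H3122, against 1221, 1163 and 1163 TPM in NCI-H2228 (log2 difference -3.02, adjusted p = 8.93e-11). SLC16A1, the lactate transporter MCT1, averaged 3.00 ± 0.198 TPM in NCI-H3122 and 117 ± 4.98 TPM in NCI-H2228. HK2, a hexokinase that starts glycolysis, was an exception, at 195 ± 6.53 TPM in NCI-H3122 and 57.9 ± 4.00 TPM in NCI-H2228. Of 18 tested hypoxia genes, 0 were higher and 12 lower (66.7%) by 2-fold or more, with a median of -1.71. HIF1A, the hypoxia-inducible factor, averaged 109 ± 4.99 TPM in NCI-H3122 and 767 ± 30.8 TPM in NCI-H2228. CA9, a carbonic anhydrase and hypoxia target, averaged 0.0793 ± 0.0113 TPM in NCI-H3122 and 98.1 ± 4.92 TPM in NCI-H2228.

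Other metabolic groups differed among themselves. Among 31 tested genes of oxidative phosphorylation and mitochondria, 8 were higher and 4 lower by 2-fold or more, with a median of 0.31. MDH2, mitochondrial malate dehydrogenase, measured 401, 406 and 399.7 TPM in NCI-H3122, against 145, 140.4 and 144 TPM in NCI-H2228. Among 34 tested cholesterol and fatty acid genes, 4 were higher (11.8%) and 9 lower (26.5%), with a median of 0.035. These shares were near the 12.1% and 27.4% of all tested genes. HMGCS1, an early enzyme of cholesterol synthesis, averaged 172 ± 7.19 TPM in NCI-H3122 and 49.6 ± 1.47 TPM in NCI-H2228, and FADS2, a fatty acid desaturase, averaged 6.57 ± 0.483 TPM in NCI-H3122 and 90.7 ± 2.43 TPM in NCI-H2228. Of 35 tested serine, one-carbon and amino acid genes, 6 were higher and 16 lower (45.7%), with a median of -0.62. IDO1, the interferon-inducible enzyme that degrades tryptophan, was listed at 0 in the NCI-H3122 libraries and measured 100.2, 88.4 and 89.4 TPM in NCI-H2228. ATF4, the amino acid stress factor, averaged 613 ± 30.8 TPM in NCI-H3122 and 189.7 ± 12.8 TPM in NCI-H2228. CYP1A1 and CYP1B1, relatives that both metabolise aromatic hydrocarbons, were opposed, at 55.4 ± 3.99 TPM in NCI-H3122 and 2.61 ± 0.191 TPM in NCI-H2228 for CYP1A1, and at 65.4 ± 1.34 TPM in NCI-H3122 and 644 ± 6.73 TPM in NCI-H2228 for CYP1B1.

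**Figure D4:**
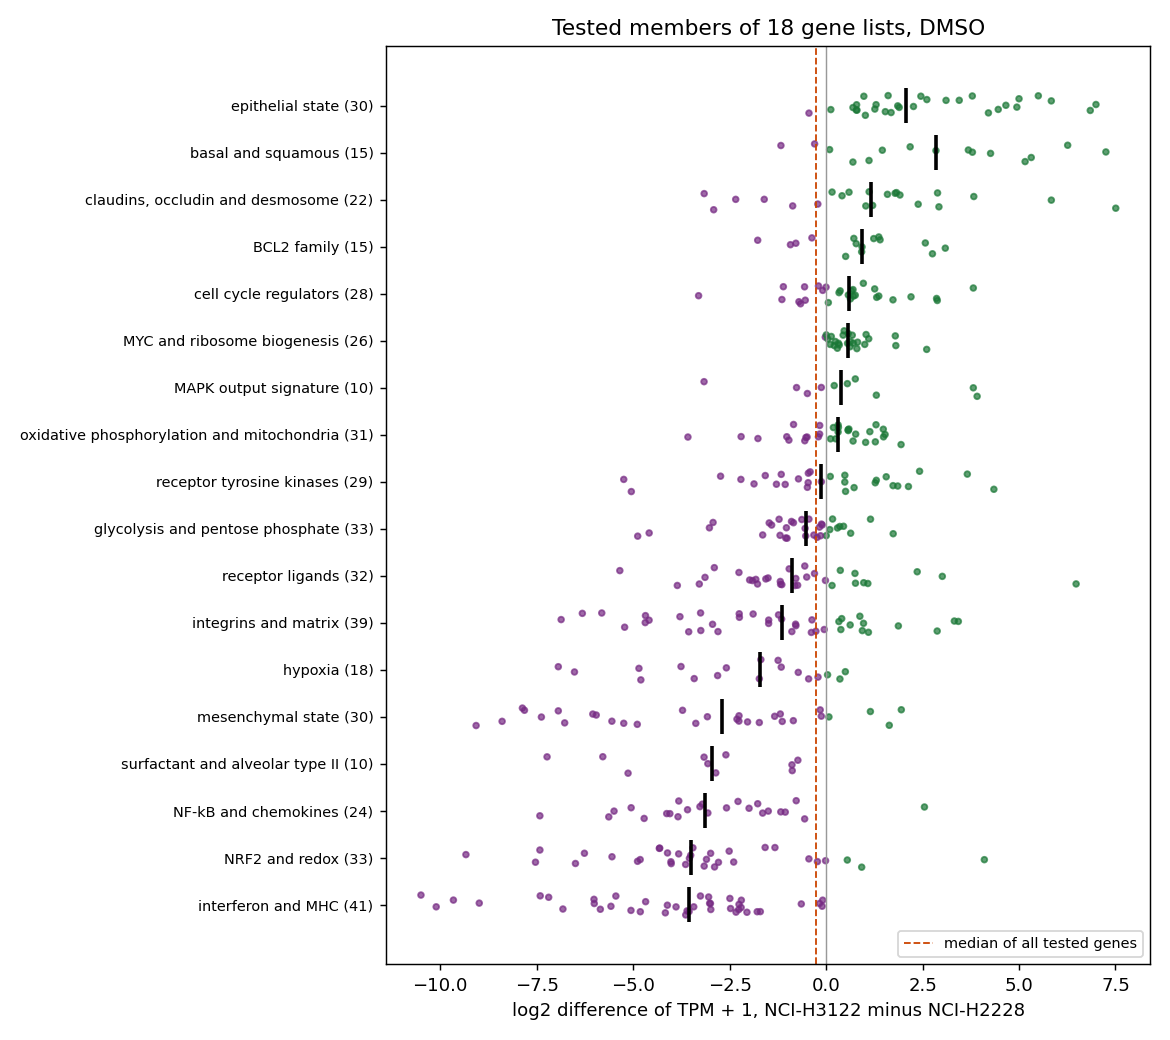
Log2 difference (NCI-H3122 minus NCI-H2228, x axis) of each tested member of 18 gene lists, one row per list, with a black tick at the list's median and a dashed line at the median of all genes, -0.27. Epithelial and basal genes lie to the right, and interferon, NRF2, NF-kB and mesenchymal genes to the left.

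Ranked over all named protein-coding genes with separate libraries, the 15 largest differences in favour of NCI-H3122 were S100A14, IGFL1, PEG10, CGN, LUM, KRT17, RAB25, SPANXC, AP1M2, CDH6, IGF2, SERPINB5, SEMA3F, CEACAM5 and GJB2. All but S100A14, CGN, KRT17, CEACAM5 and GJB2 had passed the filter through NCI-H3122 alone, so they had to differ. S100A14, a calcium-binding protein of epithelia, measured 5432, 5254 and 5213 TPM in NCI-H3122, against 4.37, 3.18 and 4.45 TPM in NCI-H2228 (log2 difference 10.06, SE 0.103, adjusted p = 1.33e-09). PEG10, an imprinted gene derived from a retroelement, averaged 379 ± 5.65 TPM in NCI-H3122 and 0.451 ± 0.167 TPM in NCI-H2228. Outside the protein-coding genes, the imprinted RNA H19 averaged 2392 ± 79.1 TPM in NCI-H3122 and 1.24 ± 0.0923 TPM in NCI-H2228, beside its chromosomal neighbour IGF2. SPANXC belongs to a family of near-identical copies, so its value is uncertain. In the other direction the 15 were CD74, HLA-DRB1, HLA-DRB5, HLA-DRA, AKR1B10, VIM, BST2, CHI3L1, SPP1, CDH11, C1S, ENG, IFITM3, NNMT and BHMT2. All but AKR1B10, VIM and IFITM3 had passed through NCI-H2228 alone, so they had to differ and their p-values add nothing. SPP1, the secreted phosphoprotein osteopontin, measured 0.143, 0.0630 and 0.120 TPM in NCI-H3122, against 387, 361 and 376 TPM in NCI-H2228 (log2 difference -8.40, adjusted p = 2.77e-11). NNMT, nicotinamide N-methyltransferase, measured 0.0380, 0 and 0.0479 TPM in NCI-H3122, against 262, 233 and 225 TPM in NCI-H2228.

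Several large differences lay side by side on the genome. Medians were taken over 11943 runs of 20 neighbouring protein-coding genes, and 5% of these fell below -1.20 and 5% lay above 0.65. The highest run, chr1:151982915-153631360, from S100A10 to S100A13, had a median of 2.73, with 16 of 20 genes higher by 2-fold or more and 4 lower. It holds S100A14 and its neighbours S100A6, at 15737 ± 129 TPM in NCI-H3122 and 2643 ± 51.5 TPM in NCI-H2228, and S100A2, at 755 ± 6.54 TPM in NCI-H3122 and 38.5 ± 2.95 TPM in NCI-H2228. Just beyond it lie genes of unrelated function, named after their values were seen. RPS27, a ribosomal protein gene, measured 8019, 8569 and 7969 TPM in NCI-H3122, against 1037, 955 and 995 TPM in NCI-H2228, and averaged 1109 ± 30.9 TPM in SNU2535. ILF2, an RNA-binding factor, averaged 3562 ± 111 TPM in NCI-H3122, 588 ± 8.95 TPM in NCI-H2228 and 446 ± 17.6 TPM in SNU2535. MCL1 and CGN, described above, lie on the same arm within the few megabases before this run.

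The next separate run, chr14:31334312-36320676, which ends at MBIP, had a median of 2.62, with 18 of 20 genes higher by 2-fold or more and 1 lower. It holds NFKBIA, the exception among the NF-kB genes, and PSMA6, a proteasome subunit with 634 ± 23.8 TPM in NCI-H3122 and 95.9 ± 2.68 TPM in NCI-H2228. Beyond NKX2-1 the pattern went on with NKX2-8, a related homeobox gene, at 92.7 ± 8.06 TPM in NCI-H3122 and 14.5 ± 0.799 TPM in NCI-H2228, with PAX9, a paired-box factor of the foregut, at 102 ± 4.64 TPM in NCI-H3122 and 19.7 ± 1.37 TPM in NCI-H2228, and with FOXA1. NKX2-1 itself, at 0.58, and the adjacent SFTA3, at -1.29, stood below these neighbours. Near CCND1 on chromosome 11, ANO1 and FADD were also higher, but none of the 5 highest separate runs lay on that chromosome. ANO1, a chloride channel, averaged 117 ± 2.42 TPM in NCI-H3122 and 13.8 ± 1.24 TPM in NCI-H2228. FADD, an adaptor of death receptors, averaged 382 ± 9.23 TPM in NCI-H3122 and 146 ± 3.28 TPM in NCI-H2228. PSMA6, NKX2-8 and FADD were named after their values were seen. In the opposite direction, the run chr6:32168212-33087201, from AGPAT1 to HLA-DPB1, had a median of -4.70, with 16 genes lower by 2-fold or more. A run that starts and ends at histone genes, chr6:26031650-27135291, had a median of -2.24. Poly-A enrichment captures histone transcripts poorly, but the run also holds other genes, named after their values were seen. Among these, HFE had a log2 difference of -2.23 and BTN3A1 one of -3.63. DNA copies were not measured here, and their part in these values was not tested.

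**Figure D5:**
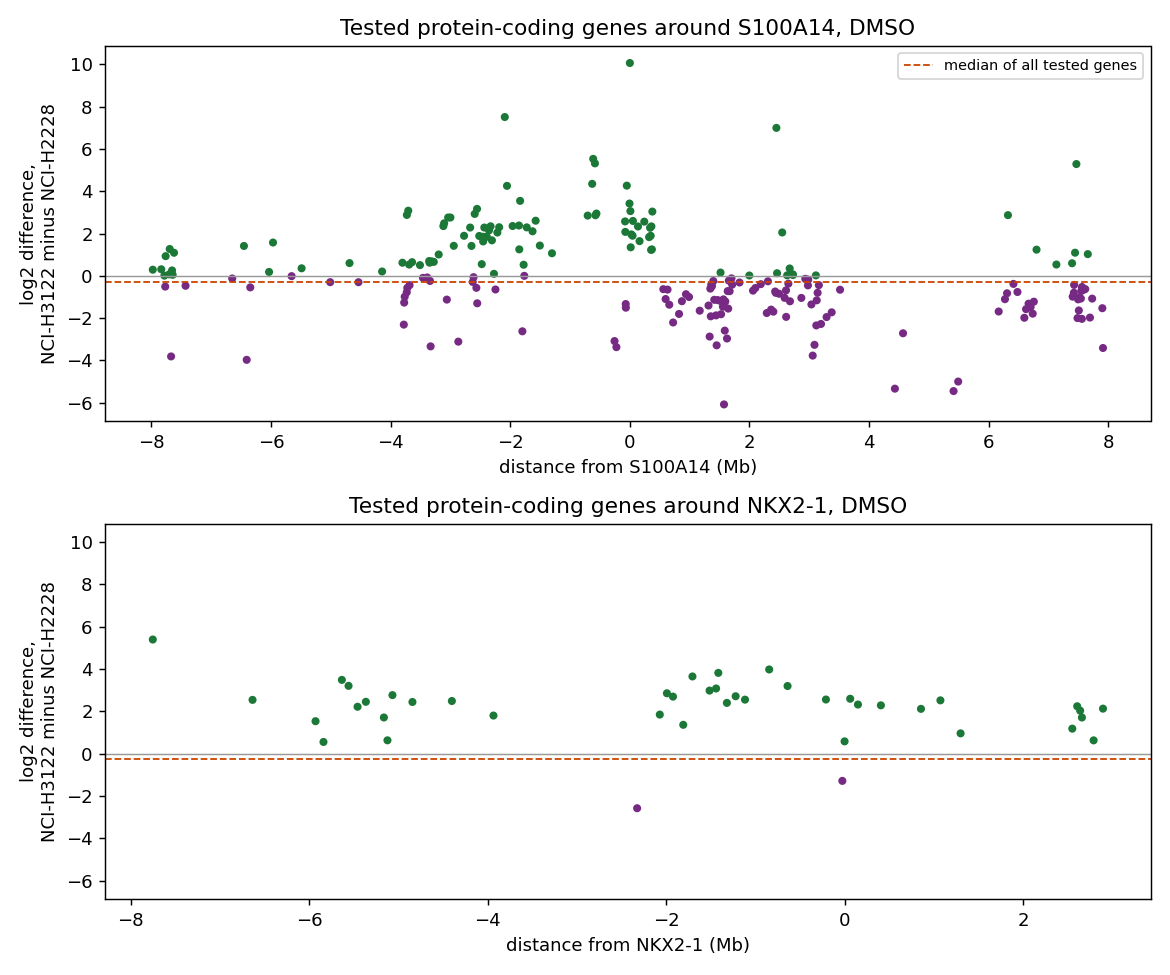
Log2 difference (NCI-H3122 minus NCI-H2228, y axis) of each tested protein-coding gene against its distance in megabases from S100A14 on chromosome 1 and from NKX2-1 on chromosome 14 (x axes), with values above 0 and below 0 in different colours. Next to S100A14 and on its left most genes lie above 0, further to its right most lie below 0, and around NKX2-1 a long row of genes lies near 2 to 4 while NKX2-1 is at 0.58.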

How the data were processed

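The authors deposited 1 table of TPM values for 57500 genes in 18 libraries, each summing to 1000000. Per the submitters' processing notes, fastp 0.23.1, STAR 2.5.2b, featureCounts of Subread 1.5.2, DESeq2 and GRCh38 were used. Not given in the sources used here are the annotation, how strand and molecular identifiers were handled, and how TPM was derived. Overlapping, antisense and near-identical genes are therefore uncertain, and the depth is unknown, so no counting interval can be given.

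Genes with at least 1 TPM in at least 3 of the 6 DMSO libraries were fitted in R 4.3.3 with limma 3.58.1 on log2(TPM + 1), a pseudocount of 1, with trended and robust eBayes, two-sided. P-values were adjusted by Benjamini and Hochberg over all 16971 genes and called under 0.05, and a second rule added a 2-fold difference. The 6 TRI-611 libraries were fitted on the same genes, and the 12 libraries together for the interaction. The fits were tested on simulated data. Gene names and coordinates came from the files and from GENCODE 29, which held 56898 of the 57500 IDs; 485 genes had no name.

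ALK, EML4, members of 42 gene lists and the 15 largest non-overlapping differences in each direction could be named; genes outside this rule are marked as named after their values were seen. Genes and lists were chosen with earlier results of these data known, so a list's count is a description. The labels give a batch equal to the replicate number, which pairs the libraries. Deviations from the line means in the same batch correlated at -0.0234, 0.00897 and -0.0512 across genes. Alternatives were other pseudocounts, filters, scalings, a replicate block, a fit of all libraries, plain eBayes, a minimum difference, and each library left out. Figures were drawn with matplotlib 3.10.9.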

Additional observations from a re-analysis of the deposited data

Results flagged for a closer look

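For 9 of the 10 MAPK output genes the difference between the lines was not the same with TRI-611 as with DMSO, by limma's test of the interaction over 12 libraries with Benjamini-Hochberg adjustment over 16971 genes. Each value is the log2 line difference with TRI-611 less that with DMSO, so a negative value means that NCI-H3122 stood lower relative to NCI-H2228 with TRI-611. The largest of the 9 were DUSP6 at -2.50 (adjusted p = 4.97e-07) and SPRY4 at -2.38 (adjusted p = 9.95e-08). PHLDA1 followed at -1.03 (adjusted p = 3.76e-06), EPHA2, an ephrin receptor, at -0.78 (adjusted p = 0.000231) and EPHA4 at -0.65 (adjusted p = 0.00162). ETV5 stood at -0.46 (adjusted p = 0.0192), DUSP4, a phosphatase of MAP kinases, at -0.45 (adjusted p = 0.00045), SPRY2, a feedback inhibitor, at -0.42 (adjusted p = 0.0199) and CCND1 at -0.18 (adjusted p = 0.0236). EGR1, an immediate-early factor outside that list, stood at -2.55 (adjusted p = 5.38e-06). Over all tested genes, 12.4% had an interaction call, and the part played by batch or culture was not tested.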

How the results depend on the processing

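Counts of calls between the lines with DMSO kept within 1.5 times of the reported 5312 higher and 8630 lower under every alternative but one. Testing against a minimum log2 difference of 1 left 1460 higher and 3564 lower. Among the 2053 higher and 4647 lower calls at 2-fold or more, a pseudocount of 5 gave 1183 and 2670, a mean of at least 5 TPM, with fewer genes tested, gave 1364 and 2892, and quantile normalization gave 3338 and 3137. With each library left out in turn, higher calls ran from 5065 to 5314 and lower calls from 8387 to 8509, those at 2-fold or more from 2030 to 2101 and from 4580 to 4696, and those with TRI-611 from 5188 to 5326 and from 7975 to 8165. With the replicate block, the pairing by batch gave 5314 higher and 8628 lower calls, 2060 and 4646 at 2-fold or more, and 5394 and 8268 with TRI-611. Of 155 named genes, SNAI2 was the only one whose call the block changed.

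Each list median was compared with the SD of that median over pairs of libraries of the same replicate number. Of 42 list medians, 41 moved by more than this SD under at least 1 alternative, and 0 stayed within it throughout. Some values turned sign. Median-ratio scaling and quantile normalization gave 0.16 and 0.073 for EGFR and for the median of the receptor tyrosine kinases, 0.16 and 0.13 for ETV4, 0.19 and 0.24 for IRF7, 0.13 and 0.14 for SNAI2, and 0.13 and 0.21 for the median of TGF-beta and BMP genes. The median of ETS factors became 0.049 under median-ratio scaling, that of PI3K, AKT and FOXO targets 0.25 under quantile normalization, that of cancer-testis and oncofetal genes, 0.56 over the 10 tested, -0.0292 without a filter, and that of cholesterol and fatty acid genes ran from -0.0058 without NCI-H2228 replicate 2 to 0.0684 without NCI-H2228 replicate 1. The cause was not tested beyond the scaling itself. In the fit of all 18 libraries the calls of ETV4 (adjusted p = 0.117), EGR1 (0.442) and SNAI2 (0.0523) were lost, and plain eBayes lost those of EGFR (0.0695), MET (0.0622) and SNAI2 (0.0844). For 149 of the 155 genes no direction or call changed, apart from the minimum difference of 1, which small differences cannot pass.

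Values are relative levels of 3 libraries of 1 line each, with unknown depth, so counting error and absolute RNA amounts could not be judged. Genes listed at 0 have no fold. A call says little where 82.2% of genes are called, and size and separation of the libraries carry the description.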

Other observations

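Some gene groups were not described above. Of 25 tested protease and coagulation genes, 5 were higher in NCI-H3122 by 2-fold or more and 14 lower, with a median of -1.73, beside 12.1% and 27.4% of all tested genes. SERPINA1, the protease inhibitor alpha-1 antitrypsin, measured 2.26, 1.94 and 1.85 TPM in NCI-H3122, against 200.3, 194 and 199.7 TPM in NCI-H2228 (limma, log2 difference -6.04, SE 0.0595, adjusted p = 1.05e-10). PLAU, the plasminogen activator urokinase, averaged 219 ± 8.47 TPM in NCI-H3122 and 1053 ± 34.8 TPM in NCI-H2228 (SD, n = 3 each). TMPRSS11E, a membrane serine protease of squamous epithelia, averaged 27.3 ± 1.48 TPM in NCI-H3122 and 0.0684 ± 0.0699 TPM in NCI-H2228. No library of one line reached the other for these 3 genes.

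Transport genes were split, with 9 of 30 tested higher in NCI-H3122 by 2-fold or more and 13 lower. AQP3, a water and glycerol channel, averaged 385 ± 12.3 TPM in NCI-H3122 and 33.9 ± 2.88 TPM in NCI-H2228. S100A9, a calcium-binding protein of inflamed epithelium and myeloid cells, averaged 74.0 ± 6.67 TPM in NCI-H3122 and 634 ± 35.3 TPM in NCI-H2228, although it lies among the S100 genes of chromosome 1 of which most were higher in NCI-H3122. FTL, the ferritin light chain that stores iron, measured 2303, 2237 and 2369 TPM in NCI-H3122, against 11050.4, 10529 and 10634 TPM in NCI-H2228 (log2 difference -2.22, adjusted p = 3.6e-10).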
